A study of Mus musculus with 8 samples.

Results

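The segment described here is the proximal end of mouse chromosome 17, taken as every feature of the deposited expression table that starts between 3000000 and 20000000 on chromosome 17 of mm10 (GRCm38). It holds 338 of the 56465 features of the table, 165 with a gene symbol and 173 without. A feature is a gene, or a stretch of transcription without a symbol, that has its own row of read counts. The segment was picked because Fndc1 and Dynlt1b, which both lie in it, differed between the genotypes in these same libraries. The genotype difference of its members is therefore given as a description, with no test.

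RNA was measured by sequencing of polyadenylated transcripts in 8 mouse retinas. The WT group (replicates 3, 4, 5 and 7) came from wild-type mice and the TG group (replicates 2, 5, 6 and 8) from mice expressing human transferrin, both labelled C57Bl/6J. Every retina was detached by placing 10 µl of sodium hyaluronate beneath it and was taken 4 days later, so the controls carried the detachment too. WT held 3 males and 1 female, with 3 right eyes and 1 left eye, and TG held 2 males and 2 females, with 2 right and 2 left eyes. The sources used here do not give age, the promoter and insertion site of the transgene or the breeding history of the groups. Whether the retinas of a group came from different mice is not stated either. The WT retinas were 3 male right eyes and 1 female left eye, which, as separate retinas, cannot share a mouse. TG held a left and a right eye of each sex, which may have come from the same mice. The p-values thus measure only the spread between these libraries. In WT that spread lies between mice, and in TG it may lie partly between the eyes of a mouse.

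Proximal chromosome 17 of the mouse is the home of the t complex, a stretch that in some wild mice is inherited as 1 block of inversions, and it is rich in tandem gene copies. The Dynlt1 genes encode a dynein light chain, first described as a t-complex testis protein, which links cargo to the motor that moves along microtubules. The segment also carries the imprinted Igf2r gene, which clears insulin-like growth factor 2, and its antisense noncoding RNA Airn.

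The copies of a tandem family are hard to tell apart by short reads, and the start of the Dynlt1b coding sequence is shown for that reason. In the GENCODE M21 transcripts (GRCm38), Dynlt1a, Dynlt1b, Dynlt1c and Dynlt1f each have a coding sequence of 342 bases. Each of the other copies differs from Dynlt1b by 1 base, A21C, counted from the A of the start codon, which leaves 99.7% identity. Capitals mark that base in bases 1 to 60 of Dynlt1b and Dynlt1a, 5′ to 3′ on the coding strand.
Dynlt1b: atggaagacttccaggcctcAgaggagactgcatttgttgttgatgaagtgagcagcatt
Dynlt1a: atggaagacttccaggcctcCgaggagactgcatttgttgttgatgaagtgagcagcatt
Dynlt1c and Dynlt1f matched Dynlt1a over the whole coding sequence. Only 16.8% of the 50-base words in the Dynlt1b transcripts (121 of 722) occur in no other gene's transcripts, and 76.3% occur in Dynlt1a. The sources used here do not say how reads that fit several places were counted, so the split of reads among the Dynlt1 copies is uncertain.

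The Rnaset2 pair is shown as a further case of nearly identical copies, and because promoter sequences of both were available. Rnaset2a and Rnaset2b encode copies of an acid ribonuclease of lysosomes. Their promoter sequences in the RefSeq table for GRCm38.p6 were aligned without gaps, and the overlap of highest identity was kept. In it they shared 204 of 205 aligned bases, 99.5% identity. The 1 difference, A102G, is counted from the first base shown and marked by a capital. The Rnaset2a stretch is on the minus strand at chr17:8147833-8148037 and that of Rnaset2b on the plus strand at chr17:6978655-6978859. The Rnaset2a stretch lies inside its feature, which ends at 8148097. That of Rnaset2b ends just before its feature, which starts at 6978860.
Rnaset2a: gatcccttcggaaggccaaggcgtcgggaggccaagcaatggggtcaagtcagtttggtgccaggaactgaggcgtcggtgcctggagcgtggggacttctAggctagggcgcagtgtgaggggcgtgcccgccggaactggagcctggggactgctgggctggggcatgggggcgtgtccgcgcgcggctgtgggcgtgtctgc
Rnaset2b: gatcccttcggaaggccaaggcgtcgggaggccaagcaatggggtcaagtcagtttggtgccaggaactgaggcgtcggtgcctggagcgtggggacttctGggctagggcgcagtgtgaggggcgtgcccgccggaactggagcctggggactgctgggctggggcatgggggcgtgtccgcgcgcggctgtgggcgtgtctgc
In the transcripts, 21.1% of the 50-base words of Rnaset2a and 28.4% of those of Rnaset2b are found in that gene alone. For Fndc1 the share was 100%.

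Of the 338 members, 117 had a mean of at least 10 normalized reads over the 8 libraries, a share of 34.6% against 35.1% of all features, and 88 of these carried a symbol. A further 139 members had no read in any library. Among the members at 0 were 15 of 15 vomeronasal receptor features, genes of pheromone sensing. The 3 formyl peptide receptor features, which encode receptors of phagocytes for bacterial peptides, were all below the mean of 10. The distal end from 18 Mb held 20 members and 0 that reached it. Comparisons below are over the 117, which passed in part through whichever group was high, so they do not stand for all members. In bulk tissue such as this, fewer cells of a type and less RNA per cell cannot be told apart.

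Libraries held 61535690 to 75866423 reads. The summed level of 3 of 3 markers of bipolar cells, interneurons of the retina, was 13334 to 17062 in WT and 12695 to 25237 in TG. Markers of neighbouring tissue varied widely: the summed level of 4 of 4 pigment epithelium markers was 3488 to 86647 in WT and 5941 to 38545 in TG, and that of 3 of 3 lens markers 21.1 to 22382 and 38.1 to 18285. WT 3 was highest in both, and TG 6 followed it for lens. The pigment epithelium sum was mostly Ttr, with 67791 in WT 3. Rpe65 and Rgr were also highest in WT 3, but Best1 was not, with 29.7 in WT 3 and 82.9 in WT 4. The summed levels of all 9 marker classes overlapped between the genotypes, over 27 of 29 listed markers. Glul of Mueller glia and Csf1r of microglia were not found by symbol. The bipolar overlap rested on TG 6 alone (12695), with the other TG libraries above every WT library. For blood it rested on WT 4 alone (2218), with the other WT libraries above every TG library. Overlap thus does not mean like cell content.

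Housekeeping genes were among the members with the highest levels per length, and their groups overlapped. Per kilobase of GENCODE exon, Psmb1, a subunit of the proteasome, had 4331 normalized reads, Mrpl18 of the mitochondrial ribosome 3142, and Tcp1, a subunit of the CCT chaperonin, 2472. Sod2, the mitochondrial superoxide dismutase, had 1302 and Gtf2h5, a part of the repair and transcription factor TFIIH, 1236. By total reads, Psmb1 ran from 17178 to 22023 in WT and 16572 to 24288 in TG, and Sod2 from 10561 to 14969 and 12065 to 15479. The 10 members with the highest means had log2 differences (TG minus WT, on log2 of the normalized value + 1) from -0.17 ± 0.13 (SE) for Wtap, a subunit of the RNA methylation complex, to 0.40 ± 0.12 for Rnaset2a. In 9 of those 10 the groups overlapped, and Rnaset2a was the exception.

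Along the whole segment the genotype difference was spread around 0 rather than shifted 1 way. The median log2 difference of the 117 was -0.05, against -0.02 over all 19798 features tested, and 55 were above 0 and 62 below. That is 47.0% above 0, against 47.8% of all features. The median size of the difference was 0.24 in the segment and 0.22 over all features, and the median standard error 0.33 and 0.30.

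Calls were few. With limma at an adjusted p under 0.05, 0 of the 117 were called, where the share over all features was 0.0101%, that is 0.00505% in each direction. An unadjusted p under 0.05 was reached by 11, 9.40%, against 4.64% of all features. With edgeR 0 were called, against 0.0101% of all features and 0.00505% in each direction, and 10, 8.55%, had an unadjusted p under 0.05, against 4.12% of all features. DESeq2 called 2, Fndc1 and Dynlt1b, both higher in TG. Its share over all features was 0.0808%, with 0.0455% higher and 0.0354% lower. The segment was picked on this contrast, so nothing is read from these counts.

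A second count asks for which members all 4 TG libraries lay on 1 side of all 4 WT libraries. This held for 10 of the 117, 8.55%, against 2.53% of all features tested. In 8 of them TG was higher, where 1.36% of all features were, and in 2 TG was lower, where 1.16% were. The same 10 had means of at least 50, and among the 80 members at that level they made 12.5%, against 387 of 15075 features, 2.57%. Since these values chose the segment, the excess is a description and no support for it.

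**Figure D1:**
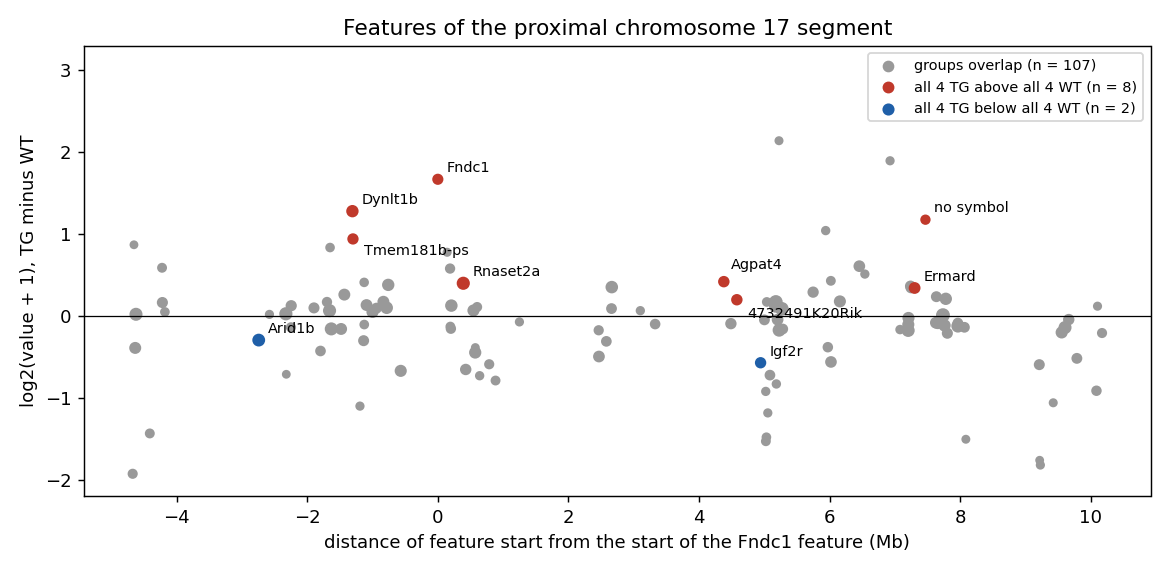
Difference between genotypes along the segment, for the 117 features that were compared. The horizontal axis gives the distance of each feature's start from the start of the Fndc1 feature in Mb, and the vertical axis the difference of mean log2(value + 1), TG minus WT. Larger points have higher means. Red marks the 8 features with all 4 TG libraries above all 4 WT libraries, blue the 2 with all below, and grey the 107 whose groups overlap. The coloured points are scattered among grey points near 0.

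Fndc1 had the largest fold of the 10 features, and it is described first. It encodes a protein with fibronectin type III domains and lies on the minus strand at chr17:7738568-7804974 (feature GSMG0050939). The WT libraries 3, 4, 5 and 7 had 118, 100.4, 88.8 and 87.7 normalized reads, and the TG libraries 2, 5, 6 and 8 had 340.4, 348, 288 and 286. Every TG library lay above every WT library, and the spread within each genotype was small beside the gap. The means were 98.6 ± 13.9 (SD, n = 4) and 315 ± 33.2, a fold of 3.20, and the log2 difference was 1.67 ± 0.26 (SE). Its level, 20.9 normalized reads per kilobase of exon, was far below that of Dynlt1b at 1768.

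Fibroblast and vessel wall markers were read beside Fndc1. Their summed level, over 4 of 4 markers, was 1515, 567, 1051 and 1293 in WT 3, 4, 5 and 7 and 2863, 2021, 1134 and 647 in TG 2, 5, 6 and 8. Within TG, the libraries with the higher sums, TG 2 and TG 5, also had the higher Fndc1 values. Within WT, WT 3 was highest in both, but the others did not follow that order. WT 7 had the lowest Fndc1 value, 87.7, and WT 4, with the lowest sum, had 100.4. Of the markers, Col1a1 had 135, 36.8, 77.2 and 45.8 in WT 3, 4, 5 and 7. In TG 2, 5, 6 and 8 it had 643, 469, 51.9 and 14.6. TG 2 and TG 5 were also highest for Col3a1 and Acta2, though Col3a1 in WT 3 was near them (326 against 397 and 382). Pdgfrb went otherwise, with 282 in WT 7 against 209 in TG 2 and 152 in TG 5. The sums of TG 6 and TG 8 lay within the WT range, while their Fndc1 values, 288 and 286, lay above every WT library. The part of this tissue in the Fndc1 values was not tested.

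Dynlt1b, on the plus strand at chr17:6430112-6436293 (feature GSMG0016182), had 1177, 644, 706 and 686 normalized reads in WT 3, 4, 5 and 7. In TG 2, 5, 6 and 8 it had 1544, 1726, 2466 and 1958. WT 3 stood above the other WT libraries but below every TG library. The fold of the means was 2.39 and the log2 difference 1.28 ± 0.21 (SE). With WT 3 left out, Dynlt1b was the 1 member past the limma threshold, where the share of all features was 0.0152%. WT 3 was the WT library nearest to TG for Dynlt1b, so nothing is read from this call.

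The other Dynlt1 copies did not separate by genotype. Dynlt1a had 591, 593, 796 and 458 in WT and 609, 943, 808 and 571 in TG (0.26 ± 0.22), and Dynlt1f had 496, 475, 874 and 453 against 533, 760, 803 and 418 (0.14 ± 0.27). Dynlt1c, the lowest copy, had 168, 347, 95.1 and 119 against 139, 203, 210 and 47.8 (-0.30 ± 0.50). All of these groups overlapped.

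The copies were also summed. A sum does not depend on how reads were divided among the copies, but it would still miss shared reads if these were discarded, which was not tested. The 4 Dynlt1 copies together had 2432, 2059, 2471 and 1717 reads in WT and 2825, 3632, 4287 and 2995 in TG, a fold of 1.58 with no overlap. The 3 copies without Dynlt1b had 1366 ± 309 (SD, n = 4) in WT and 1511 ± 420 in TG, a fold of 1.11, and overlapped. Dynlt1b made 28.6% to 48.4% of the reads of the 4 copies in WT and 47.5% to 65.4% in TG, so these shares overlapped between WT 3 and TG 5.

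Tmem181b-ps lies next to Dynlt1b, on the opposite strand at chr17:6438526-6477117, and is a pseudogene copy of the transmembrane gene Tmem181a. It had 214, 170.3, 169 and 133 normalized reads in WT 3, 4, 5 and 7, and 251, 464, 288 and 337 in TG 2, 5, 6 and 8. The groups did not overlap, with TG 5 highest, and the log2 difference was 0.94 ± 0.27 at a fold of 1.95. Tmem181a itself ran from 657 to 727 in WT and 585 to 723 in TG (-0.16 ± 0.16), and the low Tmem181c-ps from 6.82 to 30.4 and 10.6 to 61.7. Of the 50-base words of Tmem181b-ps, 50.4% are found in no other gene's transcripts. The 3 copies together had 895 ± 24.0 (SD, n = 4) in WT and 996 ± 48.6 in TG, a fold of 1.11 without overlap.

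Rnaset2a had 4859, 4087, 4675 and 4424 normalized reads in WT 3, 4, 5 and 7 and 5757, 5808, 6733 and 5549 in TG 2, 5, 6 and 8. The difference was modest, a fold of 1.32 and a log2 difference of 0.40 ± 0.12 (SE), but the lowest TG library lay above the highest WT library. The second copy is counted in 1 feature with Gm1604b, and had 1631, 1017, 991 and 1044 in WT and 1436, 1240, 1604 and 1733 in TG. There WT 3 reached into the TG range, so the groups overlapped, at 0.38 ± 0.19. Both copies summed to 5682 ± 587 (SD, n = 4) in WT and 7465 ± 589 in TG, a fold of 1.31 without overlap.

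The other duplicated pairs of the segment showed smaller folds. Rsph3a and Rsph3b, copies of a radial spoke protein of cilia, summed to a fold of 1.10, and Tagap with Tagap1 to 1.09. Both sums overlapped between the genotypes.

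**Figure D2:**
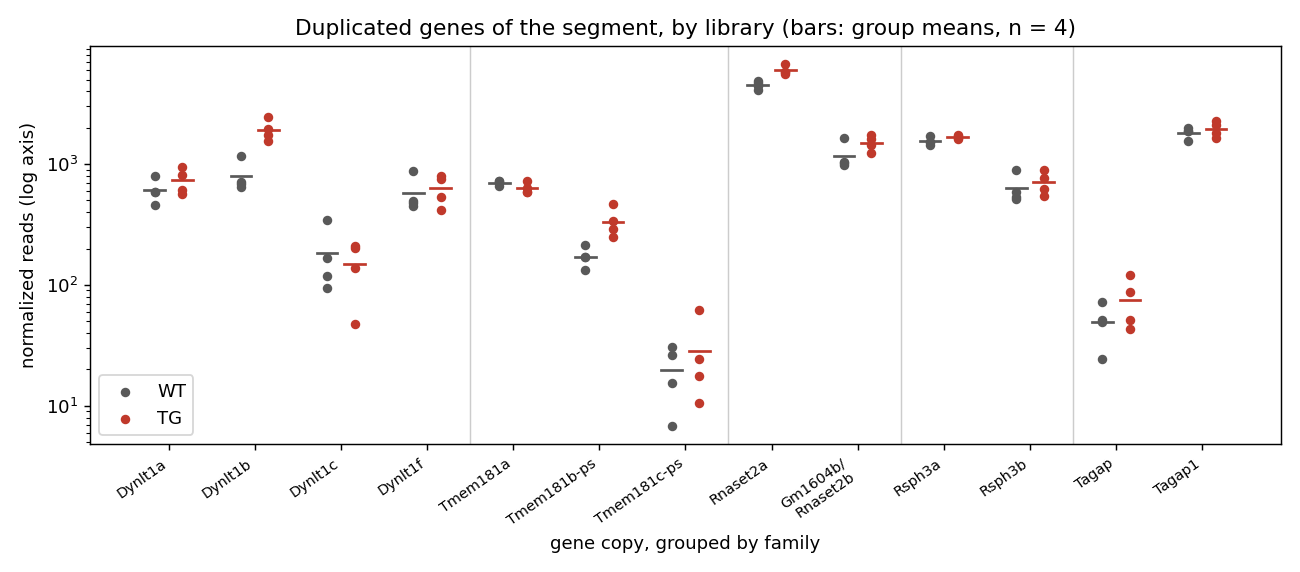
Normalized reads of the 13 copies in 5 duplicated families, on a log axis, grouped by family. Grey points are the 4 WT libraries, red points the 4 TG libraries and horizontal bars the group means. Dynlt1b, Tmem181b-ps and Rnaset2a are the copies whose points do not overlap between the groups.

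Beyond 12 Mb, 4 more features were higher in TG without overlap. Agpat4, an acyltransferase of phospholipid synthesis at chr17:12119282-12219645, had 253, 236, 304 and 315 normalized reads in WT 3, 4, 5 and 7 and 337, 380.4, 322 and 446 in TG 2, 5, 6 and 8. Its log2 difference was 0.42 ± 0.22, and the margin between WT 7 and TG 6 was narrow enough that the groups overlapped under TMM scaling. The noncoding RNA 4732491K20Rik, beside the kinase gene Map3k4, had 299.9, 278, 291 and 291 in WT and 345, 363, 324 and 304 in TG, a log2 difference of 0.20 ± 0.20. Its groups separated although the difference was no larger than its standard error, which the model draws from features of like level.

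Ermard, at chr17:15041551-15090044, encodes a protein of the endoplasmic reticulum membrane. It had 480.0, 538, 459 and 454 reads in WT and 603, 553, 580.4 and 722 in TG, with a log2 difference of 0.34 ± 0.18. A feature without a symbol at chr17:15207601-15209389 (GSMG0016264), named here after its values were seen, had 34.8, 59.8, 31.7 and 33.1 in WT and 86.0, 90.7, 74.1 and 105 in TG. This feature had a log2 difference of 1.18 ± 0.41, the third in size of the 8 that were higher, at a mean of 64.5 reads.

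In the other direction stood Arid1b and Igf2r. Arid1b, at chr17:4995074-5347656, encodes a subunit of the BAF chromatin remodelling complex and had 3387, 3099, 3099 and 3252 normalized reads in WT 3, 4, 5 and 7. In TG 2, 5, 6 and 8 it had 2792, 2466, 2826 and 2413, a fold of 0.82 and a log2 difference of -0.29 ± 0.12. Its groups overlapped under upper-quartile scaling.

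Igf2r, at chr17:12682406-12769706, had 483, 272, 284 and 295 in WT and 271, 220.1, 180.3 and 209.7 in TG. WT 3 was far above the other WT libraries, and the lowest WT and highest TG value, WT 4 and TG 2, were almost equal. The log2 difference was -0.57 ± 0.26, and it moved between -0.67 and -0.29 over the settings tried. With TMM or upper-quartile scaling the groups overlapped. The Airn features, on the strand opposite to Igf2r, had differences of -0.05 ± 0.32, -1.53 ± 1.11 and 0.17 ± 0.77, with group overlap in each. The last of these, at 12777363, lies outside Igf2r. Whether the counting used strand is unknown, so reads cannot be told apart where Igf2r and Airn share positions.

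**Figure D3:**
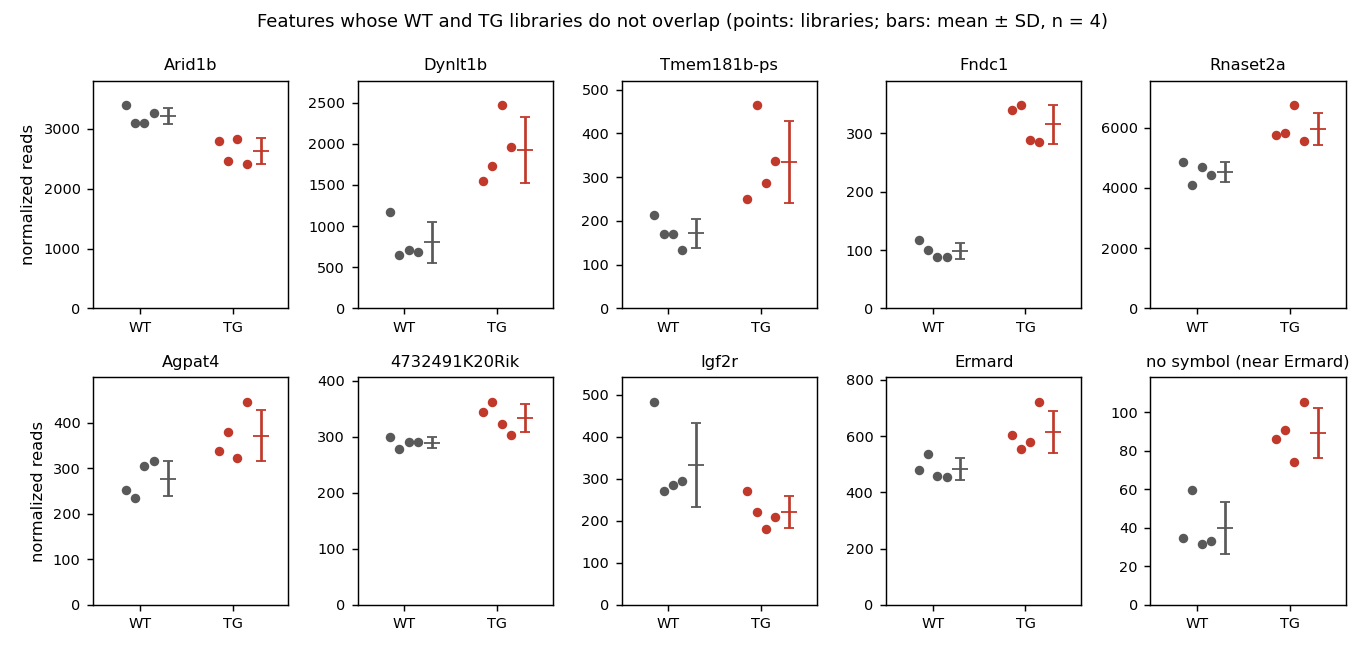
Normalized reads per library for the 10 features whose groups do not overlap, 1 panel each, with vertical axes from 0. Grey points are WT libraries, red points TG libraries and bars the mean ± SD of 4. The gap is wide for Fndc1 and narrow for Igf2r, Agpat4 and 4732491K20Rik.

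The 10 features lay in several stretches, and some were neighbours, such as Dynlt1b with Tmem181b-ps and Ermard with the feature at 15207601. The stretch from 6 to 9 Mb held 4 of them (Dynlt1b, Tmem181b-ps, Fndc1 and Rnaset2a) among 35 features with a mean of at least 10. The stretch from 12 to 13 Mb held 3 among 18, that from 15 to 16 Mb 2 among 13, and that from 4 to 5 Mb the 1 feature there, Arid1b. Over all features tested the share was 2.53%, and nothing is read from these counts, since the same contrast chose the segment. Between Dynlt1b and Fndc1 lay, among others, Ezr, Rsph3b and Rps6ka2, whose groups overlapped. On either side of Fndc1, Rps6ka2, a kinase of the ribosomal S6 family, had 995, 1288, 578 and 1630 in WT and 956, 785, 442 and 569 in TG (-0.67 ± 0.31), and E430024P14Rik had a difference of 0.78 ± 1.28. The neighbours of Fndc1 thus had values in opposite directions, each with overlap.

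The remaining members are given by gene group, where 2.53% of all features tested had no overlap and where, again, nothing is read from the counts. Among 12 actin, membrane and adhesion genes with a mean of at least 10, 7 had a positive difference and 5 a negative one, and Fndc1 was the 1 without overlap. Their differences ran from -1.43 ± 0.75 for Tiam2, an activator of the GTPase Rac, to 1.90 ± 1.04 for Thbs2. Thbs2, a matrix protein that restrains vessel growth, had 15.4, 11.1, 0 and 5.85 reads in WT and 22.2, 44.9, 9.88 and 21.5 in TG, few reads with overlapping groups.

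Ezr, which encodes ezrin and ties the membrane to actin, had 2026, 529, 668 and 841 in WT and 1618, 799, 921 and 584 in TG. WT 3 and TG 2 were the highest libraries, and the same libraries had the highest sums of pigment epithelium markers, 86647 and 38545. The part of that tissue in the Ezr values was not tested.

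Of 12 features of metabolism and mitochondria, 7 were above 0 and 5 below, and Agpat4 alone had no overlap. Mpc1, a subunit of the mitochondrial pyruvate carrier, had a difference of 0.07 ± 0.19, and Acat2, an acetyl-CoA acetyltransferase, -0.04 ± 0.20. Of 13 genes of transcription, RNA and protein turnover, 6 were above 0 and 7 below, with Ermard and Arid1b the 2 without overlap. Tbp, the TATA-binding protein, had -0.11 ± 0.16 and Qk, the RNA-binding protein quaking, -0.49 ± 0.32.

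Signalling and cilium genes had overlapping groups throughout. Of 5 features of kinase and second-messenger genes, 1 was above 0 and 4 below, among them Pde10a, a cyclic nucleotide phosphodiesterase, at -0.59 ± 0.63. Of 7 cilium, centriole and t-complex features, 3 were above 0 and 4 below. Fgfr1op, a centriole protein gene, had 384, 425, 242 and 442 in WT and 277, 261, 184 and 215 in TG, a difference of -0.65 ± 0.26. Only WT 5 reached into the TG range for Fgfr1op.

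Sex and eye gave contrasts that did not choose the segment. Fitted with genotype, the contrast of males and females called 0 of the 117 members with limma and 0 with edgeR, against 0.0303% of all features for each tool. Unadjusted p under 0.05 was reached by 2 with limma, where 3.23% of all features reached it, and by 2 with edgeR, against 2.76%. For the left against the right eye, 0 were called by either tool, against 0.0% of all features. Unadjusted p under 0.05 was reached by 2 with limma, against 3.7% of all features, and by 1 with edgeR, against 3.21%.

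Fndc1 had a log2 difference of 0.24 ± 0.28 (SE) for male minus female (limma adjusted p = 0.999) and -0.10 ± 0.28 for left minus right (adjusted p = 0.998). Dynlt1b had -0.14 ± 0.24 for male minus female and -0.05 ± 0.24 for left minus right. The median standard error over the members was 0.37 in both contrasts, so differences of small size were not detectable with 3 against 5 libraries.

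Autosomes were then divided into 132 windows of 17 Mb, each with at least 30 features tested, and the share of features without overlap was ranked. The segment, with 8.55%, was second, after a window of chromosome 16 from 71 to 88 Mb with 4 of 45 features, 8.89%. The other windows had a median of 2.48% and a 90th percentile of 4.35%, and 14 had none. On chromosome 17, the next window, from 20 to 37 Mb, had 14 of 425, 3.29%, and the 3 windows beyond had 1.52% to 1.68%. By the median size of the log2 difference the segment was only 50th of 132, and by the share of features with a difference of at least 1 in size it was 10th, with 13.7% against 8.99% of all features. So the segment stood high in the number of separated features and not in the typical size of the difference. The segment was picked with these values known, so its rank is a description.

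**Figure D4:**
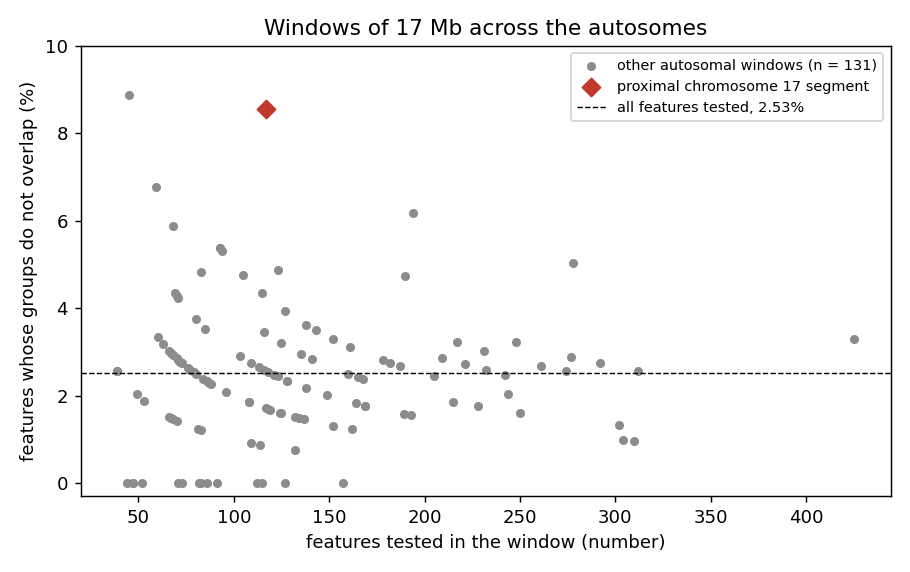
Share of features whose groups do not overlap, in percent, against the number of features tested, for 132 windows of 17 Mb across the autosomes. The red diamond is the proximal chromosome 17 segment, grey points are the other 131 windows and the dashed line is 2.53%, the share over all features. The segment and the small window of chromosome 16 lie above the rest.

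The limits of the segment were set by position. The last members with a mean of at least 10 inside the limit were Has1, a hyaluronan synthase gene, with 11.2 ± 9.50 (SD, n = 4) in WT and 17.8 ± 11.9 in TG, and a feature at 17912605 with 54.1 ± 21.5 and 45.7 ± 14.6. Just outside lay Ppp2r1a, a scaffold subunit of protein phosphatase 2A, with 14467 ± 2250 and 17090 ± 2162, and Zfp160 with 1002 ± 211 and 1071 ± 171. All of these had overlapping groups.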

How the data were processed

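Polyadenylated RNA was sequenced from 4 WT and 4 TG retinas. The deposited values are a signal: read counts that the authors normalized with DESeq2, per the file headers. The submitters' processing notes name DESeq2, STAR 2.4.0 and mm10. The sources used here do not give the counting tool, its strand setting or the annotation release. Whole reads were recovered for 100% of values within 0.01.

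The main fit was limma 3.58.1 (R 4.3.3), with a trended prior, on log2(value + 1) of 19798 features (mean of at least 10), with Benjamini-Hochberg adjustment and a threshold of 0.05. The fold changes on this scale understate those of low features. The alternatives were edgeR 4.0.16 (quasi-likelihood) and DESeq2 1.42.0 on recovered reads, TMM and upper-quartile scaling, pseudocounts of 0.5 and 5, a minimum mean of 50 or none, a term for sex or for eye, males only, no variance trend, shifted windows and leaving out each library. Leaving out WT 3 and TG 6 together was added after seeing the data. The limma fit was tried on simulated counts. That trial did not cover the counts without overlap, the window ranks or the split of reads among copies.

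Members and gene lists were chosen with earlier results of these data known. Genes named were Fndc1, Dynlt1b and their neighbours, listed genes, the 10 highest means and up to 10 features per direction without overlap and with a mean of at least 50. The edge features, the feature at 15207601 and Gm3255 fall outside that rule. Some genes that the rule allows are not reported here.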

Additional observations from a re-analysis of the deposited data

Results flagged for a closer look

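Among the groups of 4 libraries of the named genes, 134 were checked for a library far from the rest, where its gap to the nearest library, as a share of the group's range, exceeded Dixon's critical value for 4 values, and 14 were found. Chance gives about 1 in 20 groups, and groups of genes in 1 library are not independent. Values are normalized reads.

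WT 3 was high for Dynlt1b (1177, next 706) and Igf2r (483, next 295), and low for Acat2 (385, next 520.0). WT 3 was also the library with the highest sums of pigment epithelium and lens markers, and the part of these in the values was not tested. TG 6 was low for Synj2 (3.70, next 140.1), Tbp (1053, next 1241) and Has1 (0, next 22.9), and high for Acat3 (42.0, next 9.75) and for the feature of Chd1 and Riok2 (5433, next 4545). TG 6 had the second highest sum of lens markers, and its part was likewise not tested.

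WT 5 was high for Dynlt1f (874, next 496) and Has1 (25.4, next 8.19), and WT 4 was high for Serac1 (101, next 48.7). TG 8 was low for Rgmb (58.5, next 127) and for the Park2 feature at 11067116 (57.6, next 91.3). TG 5 was high for the feature of Zfp97, BC002059 and Zfp960 (179, next 115). Of the 10 features without overlap between genotypes, Dynlt1b and Igf2r are in this list, each through WT 3.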

How the results depend on the processing

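No paired analysis was possible because the labels give WT and TG only 1 shared replicate number, 5. The number of members called between genotypes was 0 under limma and edgeR in each setting except without WT 3, when it was 1. Leaving out 1 library thus gave 0 to 1, and DESeq2 called 2. The shares of all features were 0.0152% without WT 3 and 0.0808% with DESeq2. Members without overlap numbered 10 in the main setting (8 higher, 2 lower). They numbered 9 under TMM (8 higher, 1 lower) and 8 under upper-quartile scaling (8 higher, 0 lower). The shares of all features were 2.53%, 2.6% and 2.43% in these settings. Under TMM the groups of Agpat4 and Igf2r overlapped. There Gm3255 came in as higher, with 178 to 184 in WT and 187 to 304 in TG. Without 1 library there were 11 to 20, the highest without WT 5, without WT 3 and TG 6 there were 18, and with males only 30. Fewer libraries separate more easily by construction. The shares of all features were 4.0% to 8.46% without 1 library, the highest again without WT 5. They were 8.21% without WT 3 and TG 6 and 20.5% with males only. The rank of the segment among windows was 2. It became 1 of 120 when the other windows were shifted by 8.5 Mb and the segment kept its limits. With a minimum mean of 50 the rank was 1, and without WT 3 and TG 6 it was 4. It was 1 to 11 without 1 library, with 7 without TG 2 and 11 without TG 5. The median log2 difference stayed within the spread of the libraries' medians. Sex and eye called 0 members in each setting run. Of 67 named genes, 34 changed sign in at least 1 setting. None of the 10 features without overlap did, of which the feature without a symbol is not among the 67. When libraries are left out or the pseudocount is changed, groups without overlap keep their sign by construction. Nothing is therefore read from the stable sign of the 10. Depth limits members below a mean of 10 reads, which were not compared.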
